A study of Homo sapiens with 36 samples.

Results

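HT-29 is an established human colon adenocarcinoma cell line, and the results below describe how its transcripts changed under JQ1. The comparison was made between 3 HT-29 libraries treated with 0.5 µM JQ1 and 3 HT-29 libraries treated with DMSO, the solvent, each for 24 h. These are 6 of the 36 libraries of a study that treated 6 colon cancer lines in the same way, with 3 libraries per line and treatment. The members are the 12372 genes, of 26468 in the table, whose level was at least 1 RPKM (reads per kb of transcript, scaled to library size) in at least 3 of the 6 HT-29 libraries. All groups were collected during logarithmic growth, and no genetic change is named in the labels. The labels name no separate cultures behind the triplicates. The p-values therefore measure a spread between libraries of the same group, which may be technical. That spread was pooled over all 36 libraries and so comes largely from the other lines.

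JQ1 competes with acetylated lysine for the bromodomains of the BET family, which includes BRD2 and BRD3. These proteins bind acetylated histones at promoters and enhancers and help to recruit P-TEFb, the kinase that releases paused RNA polymerase II. HT-29 carries mutant APC and BRAF, grows as an epithelial line and can take on enterocyte-like or mucus-secreting features. In colon cancer the Wnt pathway, the ERK pathway and MYC are the best known drivers of growth, and many genes of intestinal identity depend on large enhancers.

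The 6 HT-29 libraries held 19.4 to 53.1 M reads in genes, against 18.8 to 53.1 M over all 36, and the deepest was JQ1 replicate 1. Replicates within HT-29 correlated at r = 0.9959 to 0.9974 across genes, which are not independent of each other. Levels are relative to the RNA of each library, so a smaller share of a transcript and fewer cells that make it cannot be told apart. The colon epithelium markers KRT8, KRT18, KRT19, EPCAM, VIL1, LGALS4, CDH1 and CDX2 passed the filter, and 13 of 14 such markers were tested. With JQ1 6 of the 13 rose and 6 fell, 5 and 3 of them at least 2-fold. Those that fell included CEACAM5, CEACAM6 and CDH17, and 3 of the 13 passed the filter through the DMSO libraries only. None of 8 fibroblast markers and none of 5 endothelial markers passed the filter. The fibroblast markers summed to 0.614 to 0.842 RPKM with DMSO and 1.15 to 1.64 RPKM with JQ1, with COL1A2 and COL3A1 at 0 in all 6 libraries, and the endothelial markers to 0.438 to 0.471 RPKM with DMSO and 0.0287 to 0.0631 RPKM with JQ1, with KDR at 0. Of 9 leukocyte markers 3 were tested, CD14, CD68 and LYZ, and their summed level was 1505 to 1553 RPKM with DMSO and 1108 to 1139.7 RPKM with JQ1, nearly all of it LYZ, which Paneth cells of the gut also make.

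JQ1 moved most of the transcriptome of HT-29, usually by a little. Of the 12372 genes tested, 5263 (42.5%) were higher and 5133 (41.5%) lower with JQ1 at an adjusted p under 0.05 (limma, two-sided, Benjamini-Hochberg), together 84% of the genes. In 84.1% of genes the 3 JQ1 values did not overlap the 3 DMSO values. A change of at least 2-fold, taken after 0.5 was added to each RPKM, was reached by 617 genes upward (4.99%) and 860 downward (6.95%), 11.9% in all. Since a share of 84% passes, a single call says little, and sizes are given throughout. Counts of list members below stand against these shares of 42.5% higher and 41.5% lower. Going both ways is thus common to genes at large. Of the genes tested, 322 had reached 1 RPKM in the DMSO libraries only and 219 in the JQ1 libraries only, so they had to differ. Among the genes named here, CLDN2, ANXA13, SLC38A5, CCAT1, FGF19, AGR3, NNMT, HK2, TYRO3, POLR3G, FABP1, CXCL8, CEACAM5, IFI44, TGFB2, ASCL2, ATOH1, PTPRO, E2F2, ST6GALNAC1, CXCL1, AREG, KRT7, MT1G, MT1F, FAS, CCL28, DLL4 and CDH17 passed through DMSO only, and DPYSL3, LINC00052, ART5, H2BC4, H2BC8, H2BC21 and H3C10 through JQ1 only. Among genes that passed in both groups, 524 rose and 658 fell at least 2-fold. The filter kept 591 genes that reached 1 RPKM in exactly 3 libraries (median level 1.10 RPKM) and left out 187 that did so in 2 (median 0.796 RPKM).

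**Figure D1:**
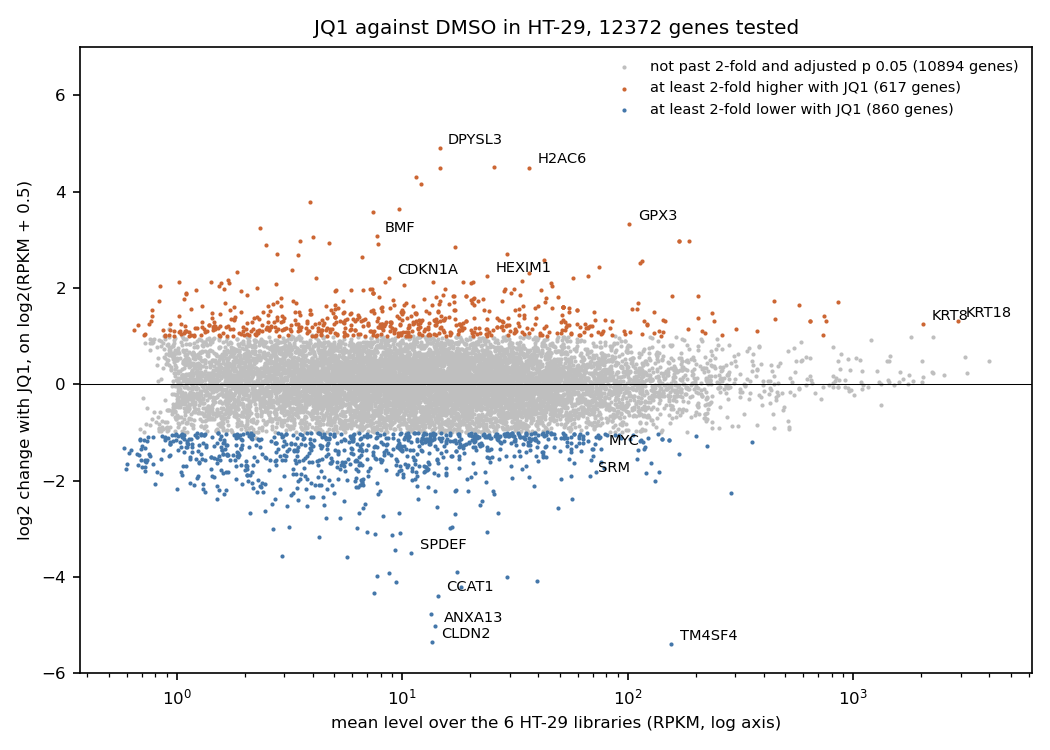
Each point is a gene tested in HT-29 (12372, of which 1 on a sex chromosome is not drawn), with its mean level over the 6 libraries (RPKM, log axis) across and its log2 change with JQ1 upward. The 617 genes that rose at least 2-fold are orange and the 860 that fell at least 2-fold are blue, and the falls reach farther (TM4SF4, −5.39) than the rises (DPYSL3, 4.90).

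The genes that serve as readouts of BET inhibition changed together. HEXIM1 (Entrez 10614), which holds P-TEFb in an inactive complex, had 8.09, 7.90 and 7.95 RPKM in the DMSO libraries and 41.01, 39.1 and 38.4 RPKM in the JQ1 libraries (log2 change 2.24, SE 0.026, adjusted p = 1.44e-31). BRD2 had 57.9, 57.9 and 57.1 RPKM in the DMSO libraries and 84.02, 83.4 and 84.2 RPKM in the JQ1 libraries (log2 change 0.54, SE 0.015, adjusted p = 1.87e-23). In both genes every JQ1 library lay above every DMSO library, and the rise of HEXIM1 was the larger. SERPINI1, a neuronal serpin often used as such a readout, stayed under the filter and was not tested, with 0.089, 0.123 and 0.0673 RPKM in the DMSO libraries and 0.959, 1.12 and 1.03 RPKM in the JQ1 libraries, on 13 and 193 reads. Among the 15 BET, P-TEFb and elongation genes, all tested, 10 rose, 2 fell and 3 did not pass, with a median log2 change of 0.26 against 0.0099 over all genes tested. AFF4, the scaffold of the super elongation complex, rose from 11.5 to 21.8 RPKM, and its partner ELL2 rose from 3.43 to 6.21 RPKM. HEXIM2, the paralog of HEXIM1, fell from 2.73 to 1.75 RPKM.

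MYC and the RNAs beside it fell, and a MYC antagonist rose. MYC (Entrez 4609), the transcription factor that drives growth and ribosome production, had 107, 109.8 and 109.8 RPKM in the DMSO libraries and 41.6, 43.1 and 43.04 RPKM in the JQ1 libraries (log2 change −1.35, SE 0.024, adjusted p = 8.31e-28), and no JQ1 library came near a DMSO library. CCAT1, a colon cancer long noncoding RNA made from an enhancer region upstream of MYC, went from 27.9 ± 0.313 to 0.858 ± 0.0678 RPKM (SD, n = 3), 20.9-fold lower after 0.5 was added. PVT1, the noncoding RNA gene downstream of MYC, fell from 17.4 to 7.61 RPKM (log2 change −1.14, SE 0.044, adjusted p = 9.54e-20). MXD4, which pairs with MAX and represses genes that MYC activates, had 11.9, 11.8 and 12.6 RPKM in the DMSO libraries and 56.7, 54.97 and 55.4 RPKM in the JQ1 libraries, a rise of 2.15 on the log2 scale. It was the single member of 13 tested MYC network genes that rose, while 7 fell and 5 did not pass (median −0.17). The largest falls among them were those of CCAT1, MYC and PVT1.

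Genes that MYC is known to activate were lower almost throughout. Of 23 tested MYC targets 22 fell, 8 of them at least 2-fold, and the median was −0.90. SRM, the spermidine synthase, had 109, 107 and 107 RPKM in the DMSO libraries and 29.03, 29.1 and 27.3 RPKM in the JQ1 libraries (log2 change −1.90, SE 0.028, adjusted p = 1.48e-29). The nucleoside diphosphate kinase NME1 fell from 215 to 60.8 RPKM, the folate carrier SLC19A1 from 19.7 to 5.25 RPKM, and NOP16, a nucleolar protein, from 54.3 to 16.3 RPKM. The exception was IMPDH2, the rate-limiting enzyme of guanine nucleotide synthesis, which rose from 134 to 152 RPKM (0.18). The summed level of the list was 3508 to 3592 RPKM with DMSO and 2045 to 2093 RPKM with JQ1, so no JQ1 library reached the range of the DMSO libraries.

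Ribosome production and nucleotide synthesis fell with them. Of 25 ribosome biogenesis genes 24 fell, with a median of −0.83, 8 at least 2-fold. TCOF1, which supports transcription of ribosomal DNA, had 31.2, 31.2 and 31.6 RPKM in the DMSO libraries and 9.74, 9.28 and 10.1 RPKM in the JQ1 libraries, a fall to less than the lowest DMSO value in each JQ1 library. RRS1 and WDR12, assembly factors of the large subunit, went from 40.2 to 13.5 RPKM and from 30.9 to 11.7 RPKM, and MRTO4, a related assembly factor, from 67.3 to 26.9 RPKM. UBTF, which marks active ribosomal DNA, rose from 34.9 to 37.2 RPKM (adjusted p = 0.00125), and with total reads as divisor it no longer passed (adjusted p = 0.408). Of 24 nucleotide synthesis genes 22 fell (median −0.75), led by MTHFD1 of the folate cycle, from 46.1 to 16.1 RPKM, and the purine enzymes PFAS, from 12.4 to 4.16 RPKM, and PAICS, from 169 to 65.97 RPKM. CTPS2, a CTP synthase, fell from 5.77 to 2.30 RPKM. PPAT, PAICS, CAD and IMPDH2 belong both to this list and to the MYC targets, so these lists are not independent. The 16 ribosomal protein genes tested had a median of 0.0042: 5 rose, 6 fell and 5 did not pass, within log2 changes of −0.20 (RPL5) to 0.28 (RPLP1), and with quantile normalization 1 rose and 12 fell, with total reads as divisor 3 and 10.

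The promoters of 2 of these genes are printed because the 6 letters CACGTG, the E-box to which MYC and MAX bind, occur more often in these lists than over all genes. The windows are from RefSeq (GRCh38.p14), 5′ to 3′ on the strand of the gene, from 250 bases before the start site to 20 after it. Capitals mark CACGTG and CCAAT, the latter on either strand (CCAAT or ATTGG), and CACGTG reads alike on both. SRM lies at chr1:11059999-11060268, minus strand, and MRTO4 at chr1:19251555-19251824, plus strand.
SRM: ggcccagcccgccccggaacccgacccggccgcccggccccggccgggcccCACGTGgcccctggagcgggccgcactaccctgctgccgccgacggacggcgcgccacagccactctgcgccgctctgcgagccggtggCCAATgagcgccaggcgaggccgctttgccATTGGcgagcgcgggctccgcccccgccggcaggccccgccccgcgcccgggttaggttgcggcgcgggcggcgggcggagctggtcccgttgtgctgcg
MRTO4: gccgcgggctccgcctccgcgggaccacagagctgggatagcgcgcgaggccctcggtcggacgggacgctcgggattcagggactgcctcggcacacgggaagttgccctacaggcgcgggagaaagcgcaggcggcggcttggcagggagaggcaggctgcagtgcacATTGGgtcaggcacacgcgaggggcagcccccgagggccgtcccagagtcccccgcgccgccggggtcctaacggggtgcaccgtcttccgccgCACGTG
SRM has 1 CACGTG well before its start site and MRTO4 has 1 just after it. In windows reaching 50 bases past the start, CACGTG occurred in 10 of 22 promoters of tested MYC targets (45.5%), 9 of 19 of ribosome biogenesis (47.4%) and 997 of 9386 of all tested genes with a promoter in the table (10.6%). Genes that fell at least 2-fold held it in 14.1% of 625 promoters and genes that rose at least 2-fold in 10.5% of 421. A match describes the letters and does not show binding.

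Cell cycle genes were lower at both ends of the cycle. All 23 tested genes of G1/S and replication fell (median −0.86, 9 at least 2-fold), and 20 of 21 genes of G2/M and the spindle fell (median −0.52, 5 at least 2-fold). CDC25A, the phosphatase that opens the way into S phase, had 13.8, 14.8 and 14.7 RPKM in the DMSO libraries and 4.43, 4.98 and 4.09 RPKM in the JQ1 libraries. MCM5, a subunit of the replicative helicase, fell from 62.7 to 21.5 RPKM, ORC1 of the origin recognition complex from 17.9 to 7.84 RPKM and E2F2 from 2.16 to 0.414 RPKM. PLK1, the kinase that governs mitotic entry, had 91.1, 89.7 and 85.6 RPKM in the DMSO libraries and 37.5, 37.7 and 38.02 RPKM in the JQ1 libraries (log2 change −1.22, SE 0.03, adjusted p = 1.35e-24). FOXM1, which drives G2/M transcription, fell from 54.4 to 24.02 RPKM, CCNA2 from 77.4 to 37.5 RPKM and AURKA from 61.2 to 29.6 RPKM. All 18 homologous recombination genes fell as well (median −0.79), among them RAD51D from 13.3 to 4.46 RPKM, FANCD2 from 7.37 to 2.91 RPKM, TOPBP1 from 32.5 to 15.1 RPKM and CHEK1 from 25.8 to 12.7 RPKM. CCAAT, the letters bound by NF-Y, occurred in 14 of 17 G2/M promoters (82.4%) and in 37.7% of all 9386.

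Some inhibitors of the cycle rose and others fell. CDKN1A, which encodes p21, had 2.77, 2.70 and 2.85 RPKM in the DMSO libraries and 14.6, 14.4 and 15.01 RPKM in the JQ1 libraries (log2 change 2.21, SE 0.049, adjusted p = 2.31e-25), so that the lowest JQ1 value was several times the highest DMSO value. GADD45B, a growth arrest gene, rose from 1.58 to 5.37 RPKM, the INK4 genes CDKN2B and CDKN2D from 2.55 to 5.64 RPKM and from 6.61 to 14.6 RPKM, and RBL1, the pocket protein p107, fell from 10.8 to 5.86 RPKM. Of the 15 members tested, 9 rose and 4 fell (median 0.28), against 42.5% and 41.5% of all genes tested. The death receptor FAS fell from 2.01 to 0.586 RPKM.

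Histone genes gave 6 of the 12 largest rises. H2AC6 (Entrez 8334) had 3.00, 2.69 and 2.29 RPKM in the DMSO libraries and 71.9, 66.4 and 73.4 RPKM in the JQ1 libraries (log2 change 4.50, SE 0.11, adjusted p = 4.14e-24), and H2BC5 had 1.53, 1.36 and 2.19 RPKM in the DMSO libraries and 48.2, 49.1 and 50.1 RPKM in the JQ1 libraries (log2 change 4.52, SE 0.11, adjusted p = 1.12e-24). H2BC4 had 0.909, 0.651 and 0.816 RPKM in the DMSO libraries and 30.00, 27.3 and 28.3 RPKM in the JQ1 libraries on 24 and 1215 reads, and H2BC8 0.398, 0.916 and 0.702 RPKM in the DMSO libraries and 21.4, 20.5 and 25.2 RPKM in the JQ1 libraries on 21 and 935 reads. In each of these 4 genes the groups lay far apart, and both H2BC4 and H2BC8 passed the filter only through the JQ1 libraries. H2BC21, which rose from 0.852 to 23.4 RPKM, and H3C10, which rose from 0.723 to 14.04 RPKM, also passed only that way. Of 18 listed core and linker histone genes 14 were tested, 7 of them through JQ1 only. The 14 tested were at least 2-fold higher, from 1.11 to 4.52 on the log2 scale (median 2.96, or 2.61 at a pseudocount of 1 and 3.91 at 0.1). The 4 untested genes stayed at or below 1.08 RPKM in every library. The summed level of the 18 listed genes was 245 to 248 RPKM with DMSO and 856 to 889 RPKM with JQ1. Many histone genes are nearly identical copies of one another, so the level of a single member is uncertain. The replication-dependent histone genes normally follow S phase, and the S phase genes above fell. The histone levels are those of the RNA that the library kit took in, which may not be all histone RNA. How they relate to S phase was not tested.

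Promoters of histone genes are shown because 2 short elements recur in them. They are from RefSeq (GRCh38.p14), 5′ to 3′ on the gene's strand, from 250 bases before the start to 20 after it, and capitals mark TATAAA, the core of a TATA box, and CCAAT. Matches on the opposite strand, where the former reads TTTATA, are marked as well. H2AC6 lies at chr6:26123922-26124191 and H2BC5 at chr6:26157871-26158140, both on the plus strand.
H2AC6: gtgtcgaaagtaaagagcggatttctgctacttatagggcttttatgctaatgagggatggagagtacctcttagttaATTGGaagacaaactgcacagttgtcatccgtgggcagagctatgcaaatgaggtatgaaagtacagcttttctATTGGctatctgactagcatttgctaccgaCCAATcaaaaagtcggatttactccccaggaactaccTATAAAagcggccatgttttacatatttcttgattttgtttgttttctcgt
H2BC5: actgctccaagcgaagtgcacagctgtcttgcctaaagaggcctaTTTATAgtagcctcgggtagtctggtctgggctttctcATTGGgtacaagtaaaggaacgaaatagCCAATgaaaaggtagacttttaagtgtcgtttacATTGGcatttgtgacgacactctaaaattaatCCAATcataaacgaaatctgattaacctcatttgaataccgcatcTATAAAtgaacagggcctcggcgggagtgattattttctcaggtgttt
H2AC6 holds 1 TATAAA close to its start and 3 CCAAT, H2BC5 holds 2 and 4. The printed H2AC6 window shares 255 bases with that of H2BC4, its divergent neighbour on the minus strand, so these promoters are not independent. With 50 bases past the start included, TATAAA occurred in 9 of 13 histone promoters (69.2%) against 5.31% of all 9386, and CCAAT in 11 of 13 (84.6%) against 37.7%. Among genes that rose at least 2-fold TATAAA was held by 9.74%, and among genes that fell by 7.68%. For CCAAT the shares were 46.3% and 34.4%. These histone promoters are counted among the genes that rose, so those shares are not separate from the histone shares.

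**Figure D2:**
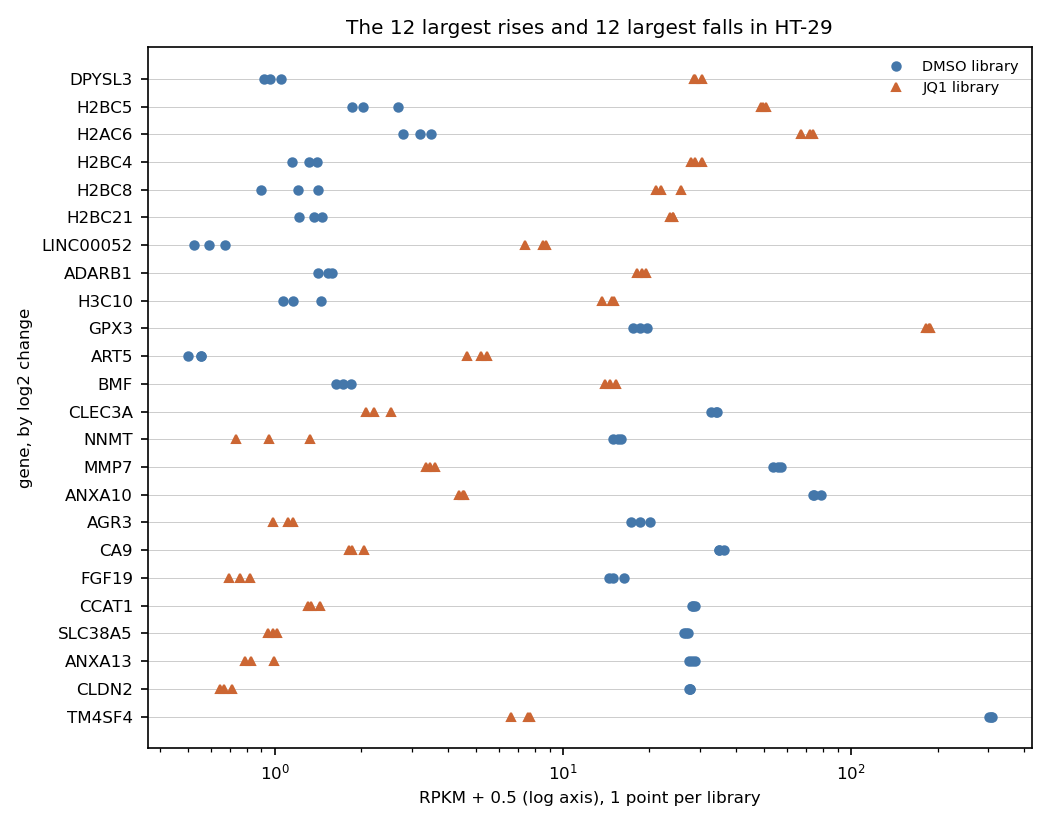
RPKM + 0.5 (log axis) of the 12 genes with the largest rises and the 12 with the largest falls in HT-29, ordered by log2 change, with 1 point for each of the 3 DMSO (blue circles) and 3 JQ1 (orange triangles) libraries. In each of the 24 genes the DMSO and JQ1 points lie apart, which the rule for naming them required, and TM4SF4, the most abundant of them with DMSO, moves from 305 to 6.79 RPKM.

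The remaining large rises came from genes of different function. DPYSL3 (Entrez 1809), a regulator of the cytoskeleton, had 0.464, 0.55 and 0.42 RPKM in the DMSO libraries and 29.96, 28.3 and 28.02 RPKM in the JQ1 libraries (log2 change 4.90, SE 0.048, adjusted p = 4.80e-33), the largest rise of all 617. LINC00052, a long noncoding RNA, had 0.0248, 0.0913 and 0.175 RPKM in the DMSO libraries and 8.25, 8.01 and 6.92 RPKM in the JQ1 libraries, and ART5, an ADP-ribosyltransferase, rose from 0.0379 to 4.62 RPKM; the DMSO values rest on 12 and 4 reads. ADARB1, an enzyme that edits adenosine to inosine in RNA, had 1.03, 0.919 and 1.08 RPKM in the DMSO libraries and 18.4, 18.98 and 17.6 RPKM in the JQ1 libraries. GPX3, the secreted glutathione peroxidase, had 17.1, 17.99 and 19.1 RPKM in the DMSO libraries and 186, 182 and 188 RPKM in the JQ1 libraries (log2 change 3.32, SE 0.047, adjusted p = 8.83e-30), the most abundant gene among the 12. BMF, which counters the survival proteins of the BCL2 family, had 1.13, 1.22 and 1.35 RPKM in the DMSO libraries and 14.1, 13.5 and 14.9 RPKM in the JQ1 libraries. DPYSL3, LINC00052 and ART5 passed the filter through the JQ1 libraries only, and the rule for naming these genes required groups that do not overlap.

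The largest falls included several genes of gut and stomach epithelium. TM4SF4 (Entrez 7104), a tetraspanin-like membrane protein, had 306, 308 and 302 RPKM in the DMSO libraries and 7.06, 7.20 and 6.10 RPKM in the JQ1 libraries (log2 change −5.39, SE 0.11, adjusted p = 2.05e-26). CLDN2 (Entrez 9075), a claudin that forms cation-permeable pores in tight junctions, had 27.1, 27.05 and 26.8 RPKM in the DMSO libraries and 0.166, 0.144 and 0.213 RPKM in the JQ1 libraries, its JQ1 values resting on 56 reads. ANXA13, an annexin of the intestinal epithelium, had 26.8, 28.2 and 27.7 RPKM in the DMSO libraries and 0.287, 0.493 and 0.329 RPKM in the JQ1 libraries. These 3 transcripts were nearly lost, and TM4SF4 had been the most abundant of them. ANXA10, an annexin of the stomach, fell from 75.2 to 3.97 RPKM, and AGR3, a protein disulfide isomerase relative of secretory cells, from 18.1 to 0.587 RPKM. The amino acid transporter SLC38A5 fell from 26.2 to 0.485 RPKM, the endocrine growth factor FGF19 from 14.7 to 0.257 RPKM and the matrix protease MMP7 from 55.1 to 2.97 RPKM. CA9, the carbonic anhydrase induced by hypoxia, fell from 34.8 to 1.40 RPKM, NNMT, which methylates nicotinamide, from 14.9 to 0.508 RPKM, and CLEC3A, a lectin of the extracellular matrix, from 33.3 to 1.78 RPKM.

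Transcription factors of intestinal secretory cells fell while general epithelial factors rose. SPDEF (Entrez 25803), which drives goblet and Paneth cell maturation, had 20.6, 21.1 and 19.99 RPKM in the DMSO libraries and 1.45, 1.23 and 1.40 RPKM in the JQ1 libraries (log2 change −3.50, SE 0.071, adjusted p = 2.28e-26). ATOH1, the master factor of the secretory lineage, fell from 2.15 to 0.364 RPKM and passed the filter through the DMSO libraries only. ELF3 (Entrez 1999), an ETS factor of differentiated epithelium, had 48.8, 48.9 and 47.8 RPKM in the DMSO libraries and 120.3, 120.2 and 125 RPKM in the JQ1 libraries (log2 change 1.32, SE 0.041, adjusted p = 4.04e-22), with every JQ1 value far above the DMSO values. Of 16 tested members of this list 6 rose, 9 fell and 1 did not pass (median −0.15, and 0.0015 over members with a mean of at least 5 RPKM). Over all genes tested 42.5% rose and 41.5% fell.

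Of the 8 goblet cell genes tested, out of 23 listed and 2 of them through the DMSO libraries only, 7 fell and MUC20, a membrane mucin, rose from 6.27 to 11.3 RPKM. REG4, a secreted lectin, had 13.2, 13.7 and 13.2 RPKM in the DMSO libraries and 2.44, 2.43 and 2.62 RPKM in the JQ1 libraries. TFF3, the trefoil factor of goblet cells, fell from 3.14 to 1.15 RPKM, and ST6GALNAC1, which adds sialic acid to mucins, from 1.60 to 0.246 RPKM. The adhesion molecules CEACAM6 and CEACAM5, the latter the carcinoembryonic antigen, fell from 29.8 to 3.37 RPKM and from 4.14 to 0.563 RPKM, and CEACAM1 from 25.4 to 10.6 RPKM; these were the 3 tested of 9 listed. Only 9 of 26 enterocyte genes were expressed enough to be tested, 3 higher and 5 lower, and 2 of the falls, FABP1 and CDH17, passed the filter through the DMSO libraries only. FABP1, a fatty acid binding protein, fell from 3.02 to 0.225 RPKM on 120 and 12 reads, and CDH17, the intestinal cadherin, from 1.46 to 0.502 RPKM, whereas the brush border protein CDHR5 rose from 4.57 to 11.1 RPKM. LYZ, the single tested gene of 18 enteroendocrine and Paneth genes, fell from 1518 to 1125 RPKM (adjusted p = 0.0245), and without DMSO replicate 2 or JQ1 replicate 1 it did not pass (0.0542 and 0.0549).

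Keratins and junction genes went the other way. KRT18 (Entrez 3875) had 1683, 1632 and 1665 RPKM in the DMSO libraries and 4135, 4153 and 4147 RPKM in the JQ1 libraries (log2 change 1.32, SE 0.021, adjusted p = 4.98e-29), and KRT8, its partner in simple epithelial filaments, 1217, 1202 and 1185 RPKM in the DMSO libraries and 2891, 2887 and 2825 RPKM in the JQ1 libraries. KRT19 had 407, 406 and 401 RPKM in the DMSO libraries and 1110.1, 1084 and 1047 RPKM in the JQ1 libraries, and KRT20, a marker of mature gut epithelium, 139, 143 and 140.1 RPKM in the DMSO libraries and 296, 295 and 299 RPKM in the JQ1 libraries. All 4 keratins were more than doubled, and they are among the abundant transcripts of the line. Of 10 tested keratins 8 rose, 5 of them at least 2-fold, and KRT7 and KRT23 fell (KRT23 named after its values were seen), KRT7 from 1.94 to 0.408 RPKM. The summed keratin level was 3437 to 3502 RPKM with DMSO and 8389 to 8507 RPKM with JQ1. CDH1, which encodes E-cadherin, rose from 92.9 to 187 RPKM, the tight junction scaffold TJP3 from 15.8 to 36.9 RPKM and the desmosomal plaque protein DSP from 12.4 to 23.3 RPKM. Of 23 junction genes 15 rose, 6 fell and 2 did not pass (median 0.35), and the fall of CLDN2 was the only one of at least 2-fold. Of 17 genes listed here for the mesenchymal state only 4 were tested, 1 higher and 3 lower. Among these TGFBI rose from 25.7 to 39.8 RPKM, and MMP7 and PLAUR (from 17.1 to 9.04 RPKM) fell.

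**Figure D3:**
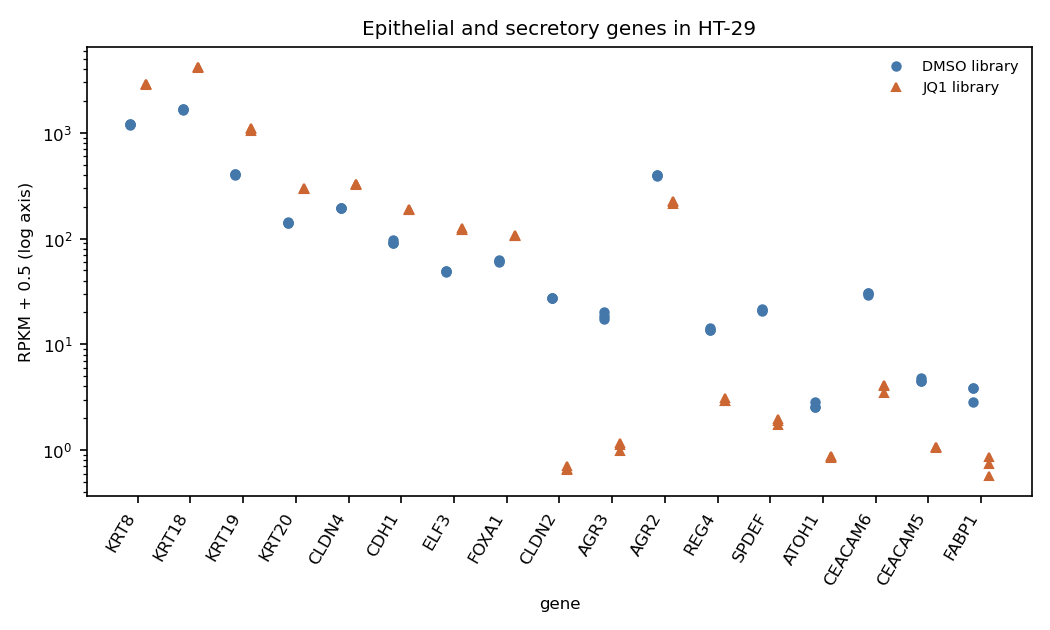
RPKM + 0.5 (log axis) of 17 epithelial, secretory and lineage genes in the 3 DMSO (blue circles) and 3 JQ1 (orange triangles) HT-29 libraries. The keratins, CLDN4, CDH1, ELF3 and FOXA1 on the left are higher with JQ1, and the genes from CLDN2 to FABP1 on the right are lower.

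Genes of growth factor signalling changed in both directions, as did genes at large (42.5% higher and 41.5% lower of all tested). EREG, which encodes epiregulin, a ligand of EGFR, had 29.3, 30.3 and 28.1 RPKM in the DMSO libraries and 3.16, 3.20 and 3.49 RPKM in the JQ1 libraries (log2 change −2.98, SE 0.046, adjusted p = 4.98e-29), and AREG, amphiregulin, fell from 2.57 to 0.628 RPKM. LRIG1, a brake on ERBB receptors, fell from 9.15 to 5.31 RPKM, and the receptor ERBB2 rose from 38.4 to 72.5 RPKM. Of 10 tested genes of this group 3 rose and 6 fell. FOSL1, an AP-1 subunit that depends on ERK, had 13.1, 13.7 and 13.04 RPKM in the DMSO libraries and 2.62, 2.11 and 2.32 RPKM in the JQ1 libraries (log2 change −2.28, SE 0.055, adjusted p = 1.33e-24), while FOSL2 rose from 13.9 to 29.05 RPKM, JUND from 31.9 to 75.1 RPKM and JUNB from 29.4 to 47.1 RPKM. Of 10 tested AP-1 genes 7 rose and 3 fell, and FOSL1 was the only one to fall at least 2-fold. The feedback genes of ERK split, with 7 of 16 higher and 9 lower and none past 2-fold: PHLDA1 fell from 22.4 to 12.3 RPKM, SPRY2 from 14.7 to 8.33 RPKM, SPRY1 from 9.46 to 5.92 RPKM, and EGR1 rose from 5.59 to 10.9 RPKM. Among 13 tested receptor tyrosine kinases 8 rose and 5 fell: TYRO3 fell from 6.16 to 0.76 RPKM, FGFR4, the receptor of FGF19, from 36.1 to 12.2 RPKM, FGFR2 from 11.1 to 6.44 RPKM and EPHB4 from 67.2 to 41.1 RPKM, and EPHB3 rose from 6.95 to 9.67 RPKM.

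Wnt targets did not move as a block. DKK1, a secreted Wnt inhibitor, had 47.3, 46.2 and 45.2 RPKM in the DMSO libraries and 6.84, 7.08 and 6.65 RPKM in the JQ1 libraries (log2 change −2.67, SE 0.13, adjusted p = 2.27e-17). ASCL2, a stem cell factor of the crypt, fell from 3.05 to 0.589 RPKM, PTPRO from 1.33 to 0.113 RPKM and TCF7, a Wnt-responsive TCF, from 19.5 to 9.87 RPKM. SOX9, a factor of the crypt base, rose from 43.2 to 75.6 RPKM. In all, 6 of the 13 tested members rose and 7 fell, of 21 listed, against 42.5% and 41.5% of all genes tested. ASCL2 and PTPRO passed the filter through the DMSO libraries only. In the TGF-beta and BMP group 4 of 15 rose and 7 fell, led by TGFB2 (from 3.50 to 0.585 RPKM), BMP4 (−0.68 on the log2 scale) and BMP2 (from 2.58 to 1.61 RPKM), with BMPR2 higher (from 7.13 to 11.7 RPKM). Of 9 tested Notch genes the ligands DLL4 (from 1.58 to 0.505 RPKM) and JAG2 (from 5.47 to 3.04 RPKM) fell, and LFNG (from 27.8 to 42.5 RPKM) and NOTCH1 (from 7.76 to 10.5 RPKM) rose.

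Genes of lipid synthesis fell more often than they rose, and genes of sugar metabolism went both ways. Of all genes tested 42.5% rose and 41.5% fell. HK2, the hexokinase of many tumours, had 8.13, 8.33 and 8.70 RPKM in the DMSO libraries and 0.745, 0.816 and 0.842 RPKM in the JQ1 libraries (log2 change −2.77, SE 0.037, adjusted p = 2.11e-30), which together with CA9 made the 2 falls of at least 2-fold among 22 glycolysis and hypoxia genes. Other members went both ways: NDRG1, a stress and hypoxia gene, rose from 3.67 to 16.8 RPKM, and in all 9 rose and 10 fell. ENO1, an enolase, fell from 669 to 363 RPKM. Of 25 genes of cholesterol and lipid synthesis 17 fell and 2 rose (median −0.47). ACSL5, which activates fatty acids, had 84.6, 83.9 and 83.9 RPKM in the DMSO libraries and 13.5, 13.98 and 13.9 RPKM in the JQ1 libraries, and the fatty acid enzymes ELOVL6 and SCD fell from 21.6 to 7.05 RPKM and from 158 to 71.2 RPKM. SC5D, a late enzyme of cholesterol synthesis, rose from 15.1 to 21.7 RPKM.

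The amino acid response driven by ATF4 fell in part, by a median of −0.65 over 17 tested genes. Of these 11 were lower and 6 higher, against 41.5% and 42.5% of all genes tested. TRIB3, a pseudokinase, fell from 28.5 to 5.74 RPKM, the cystine transporter SLC7A11 from 17.8 to 4.15 RPKM, the leucine transporter SLC7A5 from 103 to 34.1 RPKM and PSAT1 of serine synthesis from 64.8 to 22.4 RPKM, whereas asparagine synthetase, ASNS, rose from 40.2 to 63.6 RPKM. Genes of the endoplasmic reticulum changed little: 4 of 16 rose and 7 fell, none at least 2-fold (with total reads as divisor 2 and 11). SDF2L1 fell from 28.4 to 15.4 RPKM, XBP1 from 153 to 87.7 RPKM and PDIA6 from 270.3 to 178 RPKM, and ERN1 rose from 1.91 to 3.00 RPKM. Of 11 tested heat shock genes 7 fell and 4 rose; the chaperones HSPH1 (from 163 to 71.2 RPKM), HSPB1 (from 51.3 to 22.5 RPKM) and HSPA8 (from 678 to 356 RPKM) fell, and HSPA1A rose from 18.6 to 50.9 RPKM, although HSPA1A has a near-identical copy and its reads may be shared.

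Most lysosome and antioxidant genes tested rose, against 42.5% of all genes tested. Of 24 tested lysosome and autophagy genes 20 rose, 7 at least 2-fold, and 3 fell (median 0.53). NEU1, the lysosomal sialidase, had 22.6, 23.2 and 22.4 RPKM in the DMSO libraries and 110.4, 111 and 110.1 RPKM in the JQ1 libraries (log2 change 2.26, SE 0.039, adjusted p = 5.73e-28). MAP1LC3B, the autophagosome protein LC3, rose from 15.8 to 47.1 RPKM, GABARAPL1, its relative, from 2.55 to 7.54 RPKM and the autophagy receptor SQSTM1 from 114 to 296 RPKM. TFEB, the transcription factor best known for activating this programme, fell from 4.58 to 1.95 RPKM. Of 20 tested NRF2 targets 13 rose and 5 fell. GPX2, the gut glutathione peroxidase, had 399.9, 397 and 403 RPKM in the DMSO libraries and 1310.1, 1286 and 1315 RPKM in the JQ1 libraries, and NQO1, a quinone reductase, 274, 284 and 279 RPKM in the DMSO libraries and 872, 855 and 882 RPKM in the JQ1 libraries. AKR1B10, an aldo-keto reductase of the same list, fell by 2.37 on the log2 scale. FTL, the light chain of the iron store ferritin, rose from 1510.4 to 2991 RPKM.

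Most antigen presentation genes tested rose, and inflammatory genes went both ways, against 42.5% higher and 41.5% lower of all genes tested. Of 14 tested antigen presentation genes 10 rose, 5 of them at least 2-fold, and 2 fell (median 0.71). B2M, the light chain of MHC class I, had 433, 439 and 434 RPKM in the DMSO libraries and 1061, 1089.7 and 1082 RPKM in the JQ1 libraries (log2 change 1.31, SE 0.024, adjusted p = 3.34e-27). HLA-E and HLA-C rose from 28.3 to 80.9 RPKM and from 31.04 to 65.8 RPKM, and PSMB8, an immunoproteasome subunit, fell from 4.34 to 2.27 RPKM. HLA genes resemble each other, so their reads may be shared. Of 22 tested interferon-stimulated genes 9 rose and 12 fell: IRF7, a driver of type I interferon, had 12.6, 12.4 and 12.6 RPKM in the DMSO libraries and 49.3, 48.1 and 46.3 RPKM in the JQ1 libraries, while the antiviral membrane proteins IFITM2 and IFITM3 fell from 29.9 to 4.22 RPKM and from 6.69 to 1.74 RPKM and IFI44 from 2.15 to 0.142 RPKM. Of 14 tested NF-kB targets and chemokines, 8 fell and 4 rose: CXCL8 fell from 3.87 to 0.489 RPKM, CXCL1 from 1.61 to 0.261 RPKM and CCL28 from 1.89 to 0.654 RPKM, these 3 having passed the filter through the DMSO libraries only, and IL18 rose from 4.23 to 7.73 RPKM. Of 11 tested immune checkpoint genes and ligands of natural killer (NK) cells, 6 rose and 5 fell (median 0.24). LGALS9 (from 8.84 to 3.17 RPKM), PVR (from 37.9 to 20.3 RPKM) and CD276 (from 22.3 to 13.5 RPKM), ligands of immune receptors, fell, and VSIR rose from 2.81 to 6.06 RPKM.

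Of 24 tested genes of cell death 10 were higher and 12 lower, against 42.5% and 41.5% of all genes tested. The rise of BMF was the only one of at least 2-fold, and the survival gene MCL1 also rose, from 73.00 to 125 RPKM. The death receptors TNFRSF10A (from 5.80 to 1.76 RPKM) and FAS fell. Among RNA polymerase III genes 11 of 16 fell and 4 rose. GTF3C6, a subunit of TFIIIC, had 40.8, 37.2 and 37.1 RPKM in the DMSO libraries and 6.22, 7.53 and 6.62 RPKM in the JQ1 libraries (log2 change −2.42, SE 0.077, adjusted p = 9.24e-22). POLR3G, the polymerase subunit of immature and growing cells, fell from 4.90 to 0.54 RPKM, and its alternative POLR3GL rose from 8.57 to 17.9 RPKM; POLR3D fell from 5.12 to 3.01 RPKM. Of 7 tested ABC transporters ABCG1 (from 1.00 to 3.41 RPKM), ABCC5 (from 1.51 to 2.44 RPKM) and ABCC3 (from 68.8 to 99.2 RPKM) rose, and ABCC4 fell from 20.95 to 11.7 RPKM. Among 7 tested metallothionein genes MT2A rose from 61.7 to 94.1 RPKM and its activator MTF1 from 4.98 to 6.04 RPKM, MT1G fell from 1.78 to 0.46 RPKM, and MT1F fell from 1.37 to 0.671 RPKM (adjusted p = 0.00972; 0.0646 without JQ1 replicate 1).

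Genes often used as references changed about as often as other genes. Of 14 tested housekeeping genes 7 rose and 5 fell, against 84% of all genes tested called in either direction, with TUBB from 494 to 214 RPKM, TFRC from 173 to 92.97 RPKM, HPRT1 from 51.3 to 33.9 RPKM and B2M as above. The most abundant transcripts of HT-29 were mitochondrial COX2, ATP8, ATP6 and COX3, with TPT1, KRT18, TMSB10, FTL, S100A6 and KRT8. KRT18, KRT8 and FTL rose under each scaling, while COX2, ATP8, ATP6, COX3, TPT1, TMSB10 and S100A6 were 0.15 to 0.56 higher on the log2 scale as deposited and lower with quantile normalization.

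**Figure D4:**
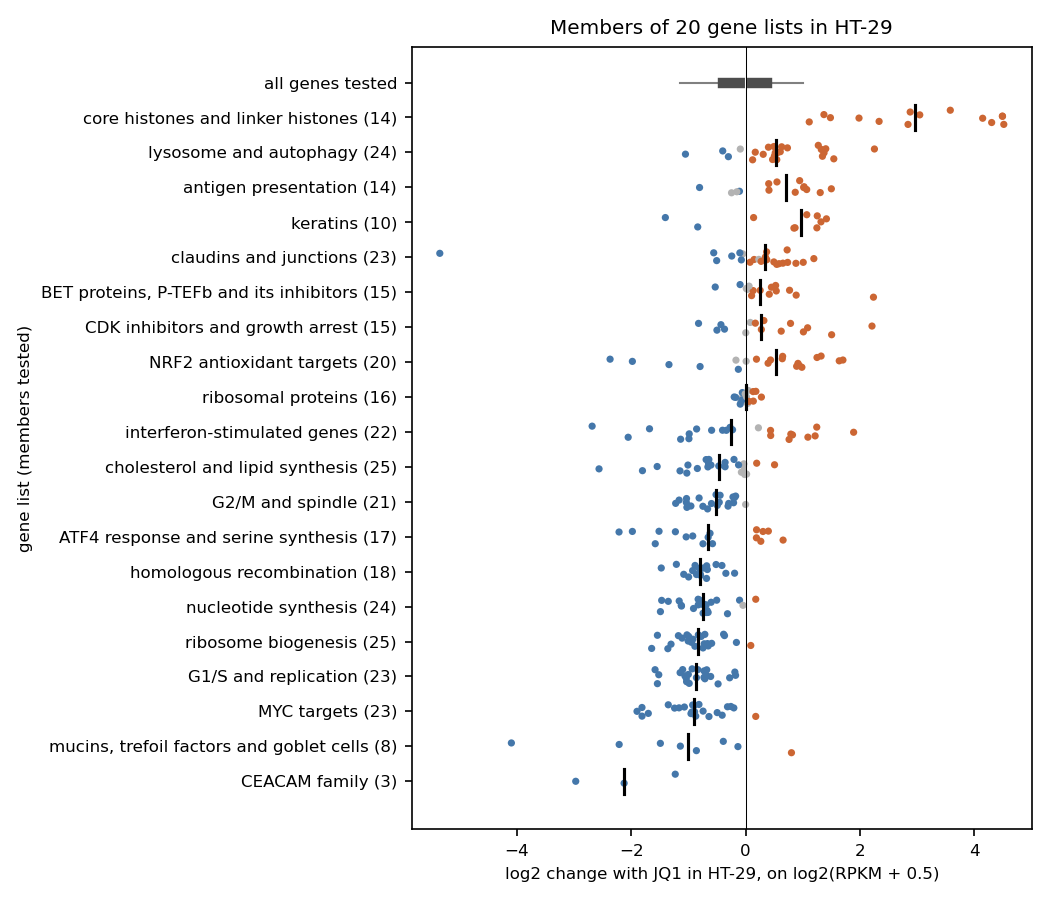
Log2 change with JQ1 in HT-29 for each tested member of 20 gene lists, with the number of members tested in brackets and a black bar at the median. Orange points rose, blue points fell and grey points did not pass; the top row gives the quartiles and the 5th to 95th percentiles of all genes tested, and histones, antigen presentation and keratins have their medians to its right and MYC targets, replication and ribosome biogenesis to its left.

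The response of HT-29 was set against the mean response of the other 5 lines, HCT116, SW480, COLO205, HCT-15 and COLO320, in the same model. The median size of the log2 change over these genes was 0.382 in HT-29, against 0.241 to 0.336 in the other lines, although genes were kept for their level in HT-29. For 4341 genes (35.1%) the change in HT-29 was higher than the mean of the other 5, and for 4021 (32.5%) lower, together 67.6%. Where another line hardly expresses a gene, its log2 change is held near 0 by the added 0.5, so the difference then describes expression as much as response. Of the 617 genes that rose at least 2-fold in HT-29, 191 did so in no other line, 165 in 1 and 26 in all 5. Of the 860 that fell, 333 did so in no other line, 250 in 1 and 29 in all 5. COLO205 shared the largest number, 277 of the rises (44.9% of those in HT-29, 60.6% of those in COLO205) and 323 of the falls (37.6% and 53.6%). As a share of the other line's own changes, COLO320 came first for rises (113, or 73.4%) and HCT-15 for falls (243, or 61.5%). A change of at least 2-fold in the opposite direction in 1 or more other lines was seen for 15 of the rises and 11 of the falls.

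The 8 genes with the lowest difference were mostly transcripts that the other lines held at low levels or not at all. TM4SF4 had 2.41 RPKM with DMSO in COLO205 and at most 0.143 in the other 4 lines (difference −4.87, SE 0.12, adjusted p = 1.28e-23). ANXA13 had 4.05 RPKM in COLO205, where it went to 0.224 with JQ1, and at most 0.00822 elsewhere (difference −4.49, SE 0.067, adjusted p = 1.37e-28). CLDN2 had 18.95 RPKM in HCT-15 and fell there to 2.34, a log2 change of −2.77 (difference −4.39, SE 0.063, adjusted p = 6.18e-29). COLO205, with 2.13 RPKM, also fell (−2.07), and the remaining 3 lines had at most 0.285 RPKM. AGR3 (−3.97), NNMT (−3.96) and CLEC3A (−3.89) stayed at or under 0.8 RPKM with DMSO in the other 5 lines, and ANXA10 (−3.66) at or under 1.91 RPKM. FGF19 was expressed in 3 other lines and differed there: it went from 126 to 28.5 RPKM in SW480, from 66.5 to 43.2 in COLO205 and from 13.5 to 14.7 in HCT116 (difference −3.81, SE 0.057, adjusted p = 1.37e-28).

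The 8 genes with the highest difference were mostly expressed in other lines too. GPX3 had 24.6 RPKM with DMSO in COLO320 and 12.5 in SW480, levels like that of HT-29, and rose there to 39.2 and 23.8 RPKM (difference 2.66, SE 0.052, adjusted p = 6.88e-26). ADARB1 rose in the other lines by 0.48 to 1.21 on the log2 scale and by 3.64 in HT-29 (difference 2.72, SE 0.065, adjusted p = 7.25e-24). DPYSL3 started higher in COLO320, at 38.97 RPKM, where it changed by 0.23, and rose by 3.67 in SW480 (difference 3.05, SE 0.052, adjusted p = 3.20e-27). RGCC, a cell cycle regulator that responds to complement, went in the opposite direction: it rose from 5.37 to 12.2 RPKM in HT-29 and fell by 0.44 to 1.82 on the log2 scale in the other 5 lines (difference 2.26, SE 0.12, adjusted p = 3.05e-16). LINC00052 (2.96) reached 2.62 RPKM in SW480 with JQ1, and H2BC8 (2.14) rose by 4.12 in COLO205.

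HOXB8 and MIR196A1, both of the HOXB cluster on chromosome 17, were among these 8. HOXB8, a homeobox factor of body patterning, had 21.7, 23.3 and 24.00 RPKM in the DMSO libraries and 129, 129 and 119 RPKM in the JQ1 libraries (log2 change 2.43, SE 0.048, adjusted p = 1.19e-26). In SW480 it went from 135 to 91.7 RPKM and in HCT116 from 29.7 to 12.9, but in HCT-15 it rose from 13.0 to 20.3. The direction of HOXB8 thus differed between lines (difference from the mean of the other 5 lines 2.63, SE 0.052, adjusted p = 1.07e-25). MIR196A1 had 18.96, 12.8 and 18.5 RPKM in the DMSO libraries and 65.7, 63.8 and 67.4 RPKM in the JQ1 libraries (log2 change 1.96, SE 0.45, adjusted p = 2.23e-04; difference 2.11, SE 0.49, adjusted p = 3.92e-04). These reads come from a library of long RNA and measure the primary transcript or overlapping RNA, not the mature miRNA. Strand is not given, so overlapping genes cannot be told apart. The mature sequences, from RefSeq (GRCh38.p14, minus strand, chr17:48632532-48632553 and chr17:48632495-48632515), are shown because the hairpin encodes a miRNA whose known targets include HOXB8 itself; capitals mark the seed, bases 2 to 8.
hsa-miR-196a-5p: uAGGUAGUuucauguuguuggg
hsa-miR-196a-1-3p: cAACAACAuuaaaccacccga

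**Figure D5:**
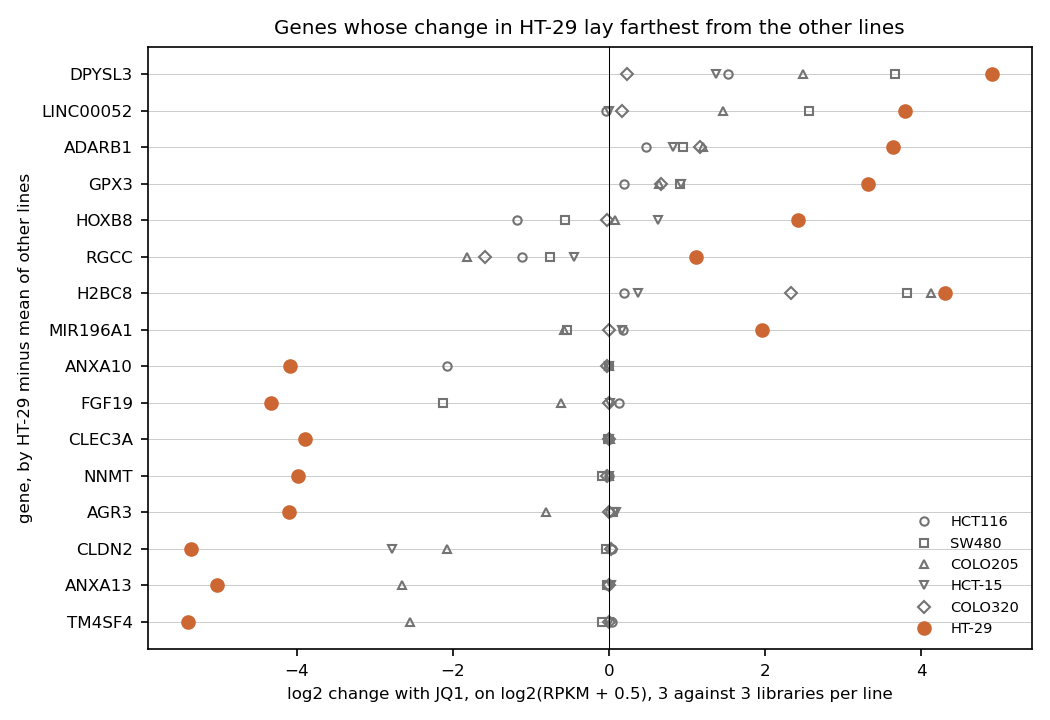
Log2 change with JQ1 in HT-29 (filled orange circles) and in the other 5 lines (open symbols) for the 16 genes whose change in HT-29 lay farthest from the mean of the others, each from 3 against 3 libraries. The lower 8 genes have most open symbols at 0, where those lines hardly express them, and RGCC rises in HT-29 only, with all 5 open symbols below 0.

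The changes of the readout genes also differed in size from the mean of the other 5 lines. The fall of MYC was larger in HT-29 than that mean (difference −0.62, SE 0.026, adjusted p = 3.33e-18). So was that of FOSL1 (difference −1.39, SE 0.06, adjusted p = 6.74e-18), and the rises of HEXIM1 (0.54) and CDKN1A (1.11) were larger. FOSL1 fell farther in COLO205, however, by −2.62 on the log2 scale against −2.28 in HT-29. It changed by −1.22 in SW480, −0.59 in HCT116, −0.14 in COLO320 and 0.17 in HCT-15. MYC changed by −1.23 in COLO205 against −1.35 in HT-29. The rise of BRD2 was slightly smaller (difference −0.084, SE 0.016, adjusted p = 3.64e-05). Against the median of the other 5 lines, a value with no test, the difference was −0.0058 for BRD2 and 0.87 for HEXIM1. For the lists, the change was lower in HT-29 for each of 23 tested MYC targets, for 22 of 25 ribosome biogenesis genes and for 20 of 21 G2/M genes, against 32.5% of all genes tested. Their median log2 changes in the other 5 lines ran from −0.71 to −0.16 for MYC targets, from −0.55 to −0.21 for ribosome biogenesis and from −0.27 to −0.02 for G2/M. The change was higher in HT-29 for 10 of 10 keratins and 16 of 23 junction genes, against 35.1% of all genes, with medians of −0.50 to 0.90 and −0.06 to 0.16 in the other lines.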

How the data were processed

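Per the labels' protocols, RNA was extracted on columns with DNase and prepared with a TruSeq RNA kit. The authors deposited RPKM per gene; GSNAP, DESeq and limma appear in the submitters' processing notes, with no versions. The build named there is NCBIM37, a mouse assembly name, although the gene identifiers are human Entrez numbers, so no coordinates were taken from the files. Symbols were matched by Entrez number to a RefSeq table of GRCh38.p14 (24519 of 26468 genes).

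Whole reads could be recovered from the steps of the RPKM values (100% of 23499 genes within 0.01 read). In HT-29, 1 read in a 1 kb gene equalled 0.0191 to 0.0524 RPKM. The authors' divisor kept a constant ratio to a median-of-ratios size factor. Chi-square per gene between HT-29 replicates was 1.33 to 2.71, so none was counted as a duplicate.

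With limma 3.58.1 (R 4.3.3), log2(RPKM + 0.5) was modelled on the 12 groups of all 36 libraries, with 24 residual and 3.49 prior degrees of freedom, and tested on simulated data. Genes with at least 1 RPKM in at least 3 of the 6 HT-29 libraries were kept; 11890 of the 12372 had a symbol and 151 repeated another gene's values. The contrasts were JQ1 minus DMSO in HT-29, and this minus the mean of the other 5 lines; p-values are two-sided with Benjamini-Hochberg adjustment over all genes tested. Fold changes on this scale understate those of low genes. The members, the 43 gene lists and the marker lists were chosen with earlier results of these data known, and no list was given a test of its own.

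Genes are named by rule: the 12 largest rises and falls with a symbol, groups that do not overlap and at least 2 RPKM in the higher group; 7 readout genes; up to 4 members with the largest called change from each list and the largest in the other direction; the 8 highest and 8 lowest differences from the other lines; and the 10 most abundant genes. Alternatives varied the pseudocount, filter, scaling, replicate block, model, libraries and, for the difference, the median in place of the mean of the other 5 lines. Replicate numbers did not pair samples (r = 0.032, −0.023 and −0.029 between deviations of same-numbered libraries). Figures were made with Python 3.11.15, pandas 2.3.3, numpy 2.4.6 and matplotlib 3.10.9. Some genes and lists that the rule names are not reported here.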

Additional observations from a re-analysis of the deposited data

Results flagged for a closer look

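In 22 named genes the HT-29 change was picked out because a test of the difference itself, HT-29 minus the mean change of the other 5 lines, passed (limma, adjusted p under 0.05), as it did for 67.6% of all genes tested. Lower in HT-29 were TM4SF4 (−4.87), ANXA13 (−4.49), CLDN2 (−4.39), AGR3 (−3.97), NNMT (−3.96), CLEC3A (−3.89), FGF19 (−3.81), ANXA10 (−3.66), CCAT1 (−2.87), FOSL1 (−1.39), MYC (−0.62) and BRD2 (−0.084). Higher in HT-29 were DPYSL3 (3.05), LINC00052 (2.96), ADARB1 (2.72), GPX3 (2.66), HOXB8 (2.63), RGCC (2.26), H2BC8 (2.14), MIR196A1 (2.11), CDKN1A (1.11) and HEXIM1 (0.54). With DMSO, CCAT1 and the 8 genes listed before it, FGF19 excepted, were more abundant in HT-29 than in any other line, and low genes have little room to fall on this scale. RGCC was the only one of the 22 whose change was at least 0.44 in one direction in HT-29 and in the opposite direction in each of the other 5 lines.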

How the results depend on the processing

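Counts of genes rested little on single libraries. Leaving out each of the 6 HT-29 libraries in turn gave 5105 to 5153 genes higher and 4980 to 5029 lower, 604 to 629 and 858 to 875 at least 2-fold, and 4164 to 4193 and 3858 to 3924 with a change above or below the other lines. A filter of a mean of at least 5 RPKM left fewer genes and gave 409 rises and 510 falls of at least 2-fold. With a replicate block on HT-29 alone 5154 genes were higher and 5036 lower (617 and 860 at least 2-fold), and the difference gave 4276 and 3986. At least 2-fold changes numbered 809 and 1044 by voom on recovered reads, 906 and 980 with quantile normalization, 525 and 987 with total reads as divisor, 763 and 1004 at a pseudocount of 0.1, and 484 and 704 at 1. Higher genes made up 50.6% of calls as deposited, 44.8% with total reads as divisor and 52.2% with quantile normalization.

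Of 201 named genes tested, 190 kept direction and call under the alternatives run. Quantile normalization reversed COX2 (−0.042), ATP8 (−0.21), TPT1 (−0.033), TMSB10 (−0.36), ATP6 (−0.26), COX3 (−0.26) and S100A6 (−0.26), and RPLP1 did not pass (adjusted p = 0.0519). The replicate block ended the calls of ATP8 (adjusted p = 0.051), ATP6 (0.0769) and COX3 (0.085) and no other named call. The same 3 calls ended without DMSO replicate 2, JQ1 replicate 1 or JQ1 replicate 2. With total reads as divisor those 3, S100A6 (adjusted p = 0.113) and UBTF (0.408) did not pass, and at a pseudocount of 0.1 S100A6 (0.302) and LYZ (0.0981) did not. Set against the median and not the mean of the other 5 lines, a value with no test, the difference kept its direction in the 22 genes and moved by more than 1 SE in 14, most in proportion for BRD2 (−0.0058) and HEXIM1 (0.87), and from −4.39 to −5.32 for CLDN2. With a mean of at least 5 RPKM the median changed sign in the lists interferon-stimulated genes (0.49), NF-kB targets and chemokines (0.33), Wnt targets and intestinal stem cells (0.40), Notch pathway (0.26), metallothioneins (0.15), enterocyte surface and metabolism (0.077), TGF-beta, BMP and ID genes (0.044), intestinal transcription factors (0.0015), immune checkpoint and NK ligands (−0.0075) and ABC transporters (−0.081), with fewer members tested. The cause of the other shifts was not tested. In shallow genes the limit is depth: CLDN2, AGR3 and FABP1 rest on 12 to 56 reads with JQ1, and intervals for such counts cover counting error only.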

Other observations

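The HOX genes were looked at after HOXB8 and MIR196A1 had appeared among the genes that set HT-29 apart, so they were chosen after their values were seen. Of 24 HOX genes tested in HT-29, 14 rose and 5 fell, and 7 rose at least 2-fold. Of all genes tested 42.5% rose, 41.5% fell and 4.99% rose at least 2-fold. In the HOXB cluster 6 of 9 rose, 5 of them at least 2-fold, and none fell, with a median log2 change of 1.15 in HT-29 and −0.082 for the mean of the other 5 lines. That mean hides rises in HCT-15, on the log2 scale, of HOXB4 (1.26), HOXB3 (1.03), HOXB8 (0.63), HOXB9 (0.54), HOXB2 (0.32) and HOXB7 (0.23). HOXB13 fell in HCT-15 (−0.84), and HOXB5 and HOXB6 did not pass there. In COLO205 HOXB2 (1.04, from 0.163 to 0.862 RPKM), HOXB5 (0.67), HOXB3 (0.48) and HOXB6 (0.16) rose. HOXB7 (−0.85), HOXB13 (−0.44) and HOXB4 (−0.34) fell in COLO205, and HOXB8 and HOXB9 did not pass. In HT-29 HOXB9 went from 115 to 255 RPKM, HOXB6 from 36.8 to 105 and HOXB5 from 21.4 to 76.3. In the HOXA cluster 5 of 11 rose and 5 fell (median 0.017), close to the shares over all genes tested. HOXA13, the most posterior of that cluster, went from 27.2 to 74.7 RPKM. HOXC6 went from 4.89 to 12.8 RPKM. Neighbouring HOX genes overlap and strand is not given, so some reads may belong to a neighbour.

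THY1, a surface protein listed here as a fibroblast marker, was not tested because it stayed near 1 RPKM. It had 0 reads over the 3 DMSO libraries, which allows up to 3, and 254 reads over the 3 JQ1 libraries, with 1.04 RPKM on average. It was singled out after its values were seen. Of the other fibroblast markers, DCN and PDGFRB had at most 2 reads in either group, and COL1A2 and COL3A1 were at 0. The sum of 0.614 to 0.842 RPKM with DMSO thus came mostly from COL1A1, LUM and FAP together.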
